A study of Homo sapiens with 16 samples.

Results

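Cholesterol and fatty acid synthesis genes were followed in glioblastoma cells that had received a mimic of the microRNA miR-137. The 31 members were a named list taken by gene symbol: enzymes of the sterol pathway, the proteins that control it, sterol carriers and exporters, and enzymes of fatty acid and glycerolipid synthesis. All 31 were found in the deposited tables, among 20314 genes in the U251 tables and 20626 in the U343 tables. The rule itself uses only the gene symbols, but the members and their roles were chosen with earlier results of these data known. Their counts beside those of all genes are thus a description. U251 and U343 are established human glioblastoma cell lines, and cells of each received 25 nM of either the miR-137 mimic or a control mimic. Total RNA (RNASeq) was collected after 48 h. RNA bound to poly(A)-binding protein (PABP), a protein that coats the poly(A) tail, was recovered with PABP antibodies from extracts of transfected cells (RIPSeq). Each of the 8 groups of line, assay and mimic held 2 libraries, 16 in all. Ribosomal RNA was removed in every group, but U251 cDNA was primed with random hexamers and U343 libraries were made with the TotalScript kit, so that line and library preparation cannot be told apart. A mimic raises the microRNA above its natural level, and untransfected cells were not analysed here.

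Cells build cholesterol from acetyl-CoA through mevalonate, isoprenoid units and squalene, which is closed into a sterol and then trimmed to cholesterol. When sterols are scarce, SCAP carries the membrane-held factors SREBP-1 and SREBP-2 (genes SREBF1 and SREBF2) to the Golgi, where they are cut free to enter the nucleus and switch on genes of sterol and fatty acid synthesis; INSIG proteins hold SCAP back when sterols are plentiful. Excess sterol is turned into oxysterols, which activate the LXR receptors and with them the exporters ABCA1 and ABCG1.

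The transfected microRNA is shown because its seed, bases 2 to 8, is the part that pairs with target messages. RefSeq gives the mature strand at chr1:98046091-98046113 of GRCh38.p14, on the minus strand, with the seed in capitals here.
hsa-miR-137-3p: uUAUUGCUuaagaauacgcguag

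Promoter windows of 300 bases, from 250 bases before to 50 bases after the start of a RefSeq transcript (GRCh38.p14), were found for 26 of the 31 members, some with more than 1 window, where a motif in any of them was counted. ACAT2, FDFT1, SQLE, ABCG1 and FASN were not matched. The 3 printed below are those of the member with a sterol regulatory element core, of the sterol isomerase gene EBP, whose message fell with miR-137, and of the exporter gene ABCA1, whose message rose. Capitals mark the sterol regulatory element core TCACNCCAC and the NF-Y box CCAAT on either strand, where CCAAT on the other strand reads ATTGG. The windows lie at chr22:41832855-41833154 on the plus strand for SREBF2, at chrX:48521558-48521857 on the plus strand for EBP and at chr9:104928106-104928405 on the minus strand for ABCA1.
SREBF2: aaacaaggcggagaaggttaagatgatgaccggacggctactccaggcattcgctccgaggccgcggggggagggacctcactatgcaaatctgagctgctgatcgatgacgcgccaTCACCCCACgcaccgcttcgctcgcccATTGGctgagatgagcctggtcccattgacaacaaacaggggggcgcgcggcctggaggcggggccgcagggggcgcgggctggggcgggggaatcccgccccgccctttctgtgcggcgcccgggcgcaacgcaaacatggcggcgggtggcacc
EBP: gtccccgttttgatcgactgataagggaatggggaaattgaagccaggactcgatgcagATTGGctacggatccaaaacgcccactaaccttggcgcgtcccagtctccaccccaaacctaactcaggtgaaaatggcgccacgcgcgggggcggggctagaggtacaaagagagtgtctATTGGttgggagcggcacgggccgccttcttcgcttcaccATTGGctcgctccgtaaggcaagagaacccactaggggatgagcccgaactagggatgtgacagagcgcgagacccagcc
ABCA1: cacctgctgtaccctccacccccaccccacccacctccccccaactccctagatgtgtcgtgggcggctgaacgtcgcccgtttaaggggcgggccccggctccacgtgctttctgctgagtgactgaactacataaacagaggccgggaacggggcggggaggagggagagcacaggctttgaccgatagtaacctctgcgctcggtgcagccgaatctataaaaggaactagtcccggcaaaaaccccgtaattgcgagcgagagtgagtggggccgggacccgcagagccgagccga

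SREBF2 was the only matched member whose window held the sterol regulatory element core (3.85% of 26), with its first base at position -133 from the start, against 1.39% of 27305 genes with a window. The EBP window held 3 NF-Y boxes, the SREBF2 window 1 and the ABCA1 window 0. At least 1 NF-Y box was found in 17 matched members (65.4%), against 39.7% of all genes. The Sp1 box GGGCGG, searched on both strands, was found in 25 (96.2%), against 48.3% of all genes. A match is a stretch of letters and was not shown to be a bound site. Only these exact letters were searched, so a window without a match is not shown to lack a sterol regulatory element. The shares of all genes cover every gene with a window, whether expressed in these cells or not.

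Depth ran from 10156675 to 45134766 counted reads per library, with U251 RNASeq the shallowest experiment. There depth went with transfection, at 16886287 and 18224061 reads in the controls and 10260834 and 10156675 in the miR-137 libraries. Levels are given in CPM, a gene's reads relative to the library total, scaled within each experiment by TMM, which sets the bulk of genes level. They are not divided by transcript length, so that a gene is compared only with itself. The glial and stem-like markers VIM and CD44 were strongly expressed in both lines, as was GFAP in U343 (4487 and 4708 CPM in control RNASeq), whereas OLIG2 did not pass 0.30 CPM in any library. GFAP was low in U251 and fell with miR-137, from 31.1 and 32.8 CPM to 3.79 and 3.28 CPM in RNASeq. Summed over the list, the glial and stem-like markers stood at 12382 to 12762 CPM in U251 RNASeq controls and 6052 to 6259 CPM with miR-137, and their part in the member changes there was not tested. Summed leukocyte markers stayed at or below 0.814 CPM in all libraries, hepatocyte markers at or below 2.44 CPM and adipocyte markers at or below 2.25 CPM. Neuron markers summed to 12.6 to 38.3 CPM in U251 and 0.418 to 1.82 CPM in U343, and endothelial markers to 0.428 to 3.13 CPM and 23.3 to 37.8 CPM. The epithelial list reached 63.8 to 120.0 CPM in U343, nearly all of it CDH1, and 0.122 to 1.37 CPM in U251, and its part in differences between the lines was not tested. The 2 U251 RIPSeq control libraries stood far apart, with a median difference of 0.65 on the log2 scale over the members, against 0.044 between the 2 miR-137 libraries. In bulk RNA, fewer cells of a type and less RNA per cell cannot be told apart. The labels do not say whether replicates were separate cultures, so p-values measure the spread between these libraries, and reads without molecular identifiers are not independent molecules.

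**Figure D1:**
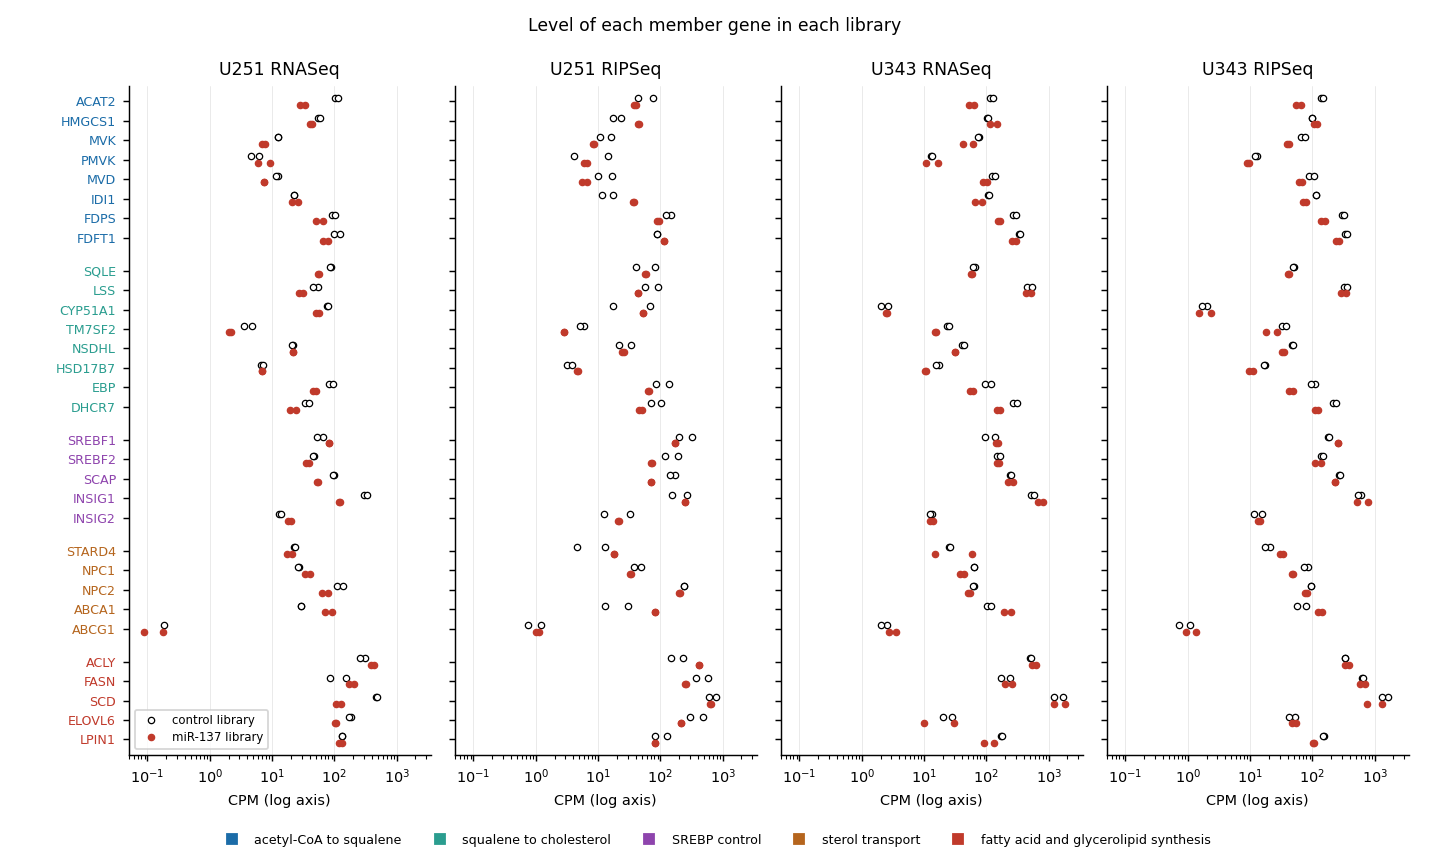
Level of each of the 31 members in every library, in CPM on a log axis, with 1 panel for each line and assay, open circles for the 2 control libraries and filled red circles for the 2 miR-137 libraries. Gene names are coloured by role. Values of 0 cannot be drawn on a log axis, which leaves out 1 U251 RNASeq control library for ABCG1. ACAT2 and SCD stand clearly to the left of their controls in U251 RNASeq, and ABCA1 stands to the right of its controls in all 4 panels.

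In total RNA of U251 cells, most sterol pathway genes fell with miR-137. Of 30 members tested, 17 fell and 6 rose at an adjusted p under 0.05 (edgeR quasi-likelihood test, Benjamini-Hochberg adjustment over 13052 genes), while 29% of all genes fell and 28.7% rose. The remaining member, ABCG1, had at most 3 reads in any U251 RNASeq library and was below the filter on low counts. The members' median log2 fold change was -0.57, against 0.02 over all genes. Among the 8 enzymes from acetyl-CoA to squalene, 6 fell and 0 rose, and among the 8 from squalene to cholesterol the numbers were again 6 and 0.

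ACAT2, the cytosolic thiolase that joins acetyl-CoA units at the start of the pathway (hg18 chr6:160102979-160120077), had 101 and 116 CPM in the control libraries and 27.9 and 34.0 CPM in the miR-137 libraries. The log2 fold change was -1.81 (SE 0.15, edgeR adjusted p = 3.48e-07). The gene overlaps TCP1 by 558 bp in the table's coordinates, and reads there cannot be told apart. FDPS, which makes farnesyl diphosphate, fell from 93.3 and 104 CPM to 50.8 and 65.9 CPM (log2 fold change -0.76, SE 0.15, edgeR adjusted p = 0.000615). It has 10 annotated pseudogenes, and how reads with several matches were counted is not given in the sources used here. The other members of this branch that fell were MVK, the mevalonate kinase (-0.78), MVD, the diphosphomevalonate decarboxylase (-0.66), FDFT1, which makes squalene (-0.63), and HMGCS1, the HMG-CoA synthase (-0.44). The call for HMGCS1 was lost without control replicate 2, with values of -0.51 to -0.39 over the 4 fits that leave out a library. PMVK and the isomerase IDI1 did not pass the threshold, at 0.51 and 0.09.

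EBP, the sterol isomerase (hg18 chrX:48265108-48272048), had 80.7 and 95.5 CPM in the control libraries and 50.2 and 45.2 CPM with miR-137 (log2 fold change -0.88, SE 0.14, edgeR adjusted p = 0.000111). LSS, which folds the squalene epoxide into lanosterol, went from 54.2 and 45.8 CPM to 26.7 and 31.6 CPM (-0.78, SE 0.15, edgeR adjusted p = 0.000525). SQLE, the squalene epoxidase, went from 88.3 and 85.7 CPM to 53.9 and 56.0 CPM (-0.66, SE 0.13, edgeR adjusted p = 0.000532). For each of these 3 genes both miR-137 libraries lay below both controls. They were picked by adjusted p, so this gap is no separate evidence. TM7SF2, a sterol reductase gene, fell by 0.97 on the log2 scale, and the last-step reductase DHCR7 fell by 0.74. The lanosterol demethylase CYP51A1 fell by 0.51. Without control replicate 1 the TM7SF2 call was lost, with log2 values between -1.19 and -0.73 over the leave-outs. NSDHL and HSD17B7 stood at 0.03 and 0.01 and did not pass the threshold.

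The genes around SREBP split. INSIG1, one of the INSIG proteins that hold SCAP back (hg18 chr7:154720419-154732876), had 294 and 335 CPM in control and 119 and 124 CPM in miR-137 libraries, a log2 fold change of -1.37 (SE 0.13, edgeR adjusted p = 1.85e-06). SCAP, the SREBP escort, fell from 99.6 and 95.7 CPM to 52.8 and 55.6 CPM (-0.85, SE 0.13, edgeR adjusted p = 7.54e-05). SREBF1 and INSIG2 rose, by 0.47 and 0.50 on the log2 scale, and SREBF2 was at -0.32 without passing the threshold. The 2 small rises were lost without 1 library each, control replicate 2 for SREBF1 (0.32 to 0.61 over the leave-outs) and miR-137 replicate 2 for INSIG2 (0.41 to 0.59).

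Of the sterol carriers and exporters, ABCA1, which pumps cholesterol out of the cell (hg18 chr9:106583105-106730257), rose from 29.5 and 29.2 CPM to 92.6 and 71.4 CPM (log2 fold change 1.48, SE 0.15, edgeR adjusted p = 2.51e-06). The lysosomal cholesterol transporter NPC1 rose by 0.50, a call lost without miR-137 replicate 1 (0.39 to 0.61 over the leave-outs), while its soluble partner NPC2 fell by 0.79. The sterol carrier STARD4 was at -0.26 and did not pass the threshold.

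SCD, the stearoyl-CoA desaturase (hg18 chr10:102096762-102114578), changed more than any other member in this experiment, from 471 and 482 CPM to 128 and 105 CPM (log2 fold change -2.03, SE 0.15, edgeR adjusted p = 1.14e-07). The fatty acid elongase ELOVL6 went from 187 and 174 CPM to 108 and 103 CPM (-0.77, SE 0.13, edgeR adjusted p = 0.000153). Both fell while ACLY, which supplies cytosolic acetyl-CoA, rose by 0.51 and the fatty acid synthase FASN rose by 0.66. The FASN control libraries were unlike each other, at 152 and 85.2 CPM against 169 and 204 CPM with miR-137, and without control replicate 2 the calls for FASN (0.29 to 1.13 over the leave-outs), ACLY (0.37 to 0.65) and SREBF1 were lost, leaving 3 members higher. The phosphatidate phosphatase LPIN1 was at -0.08.

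**Figure D2:**
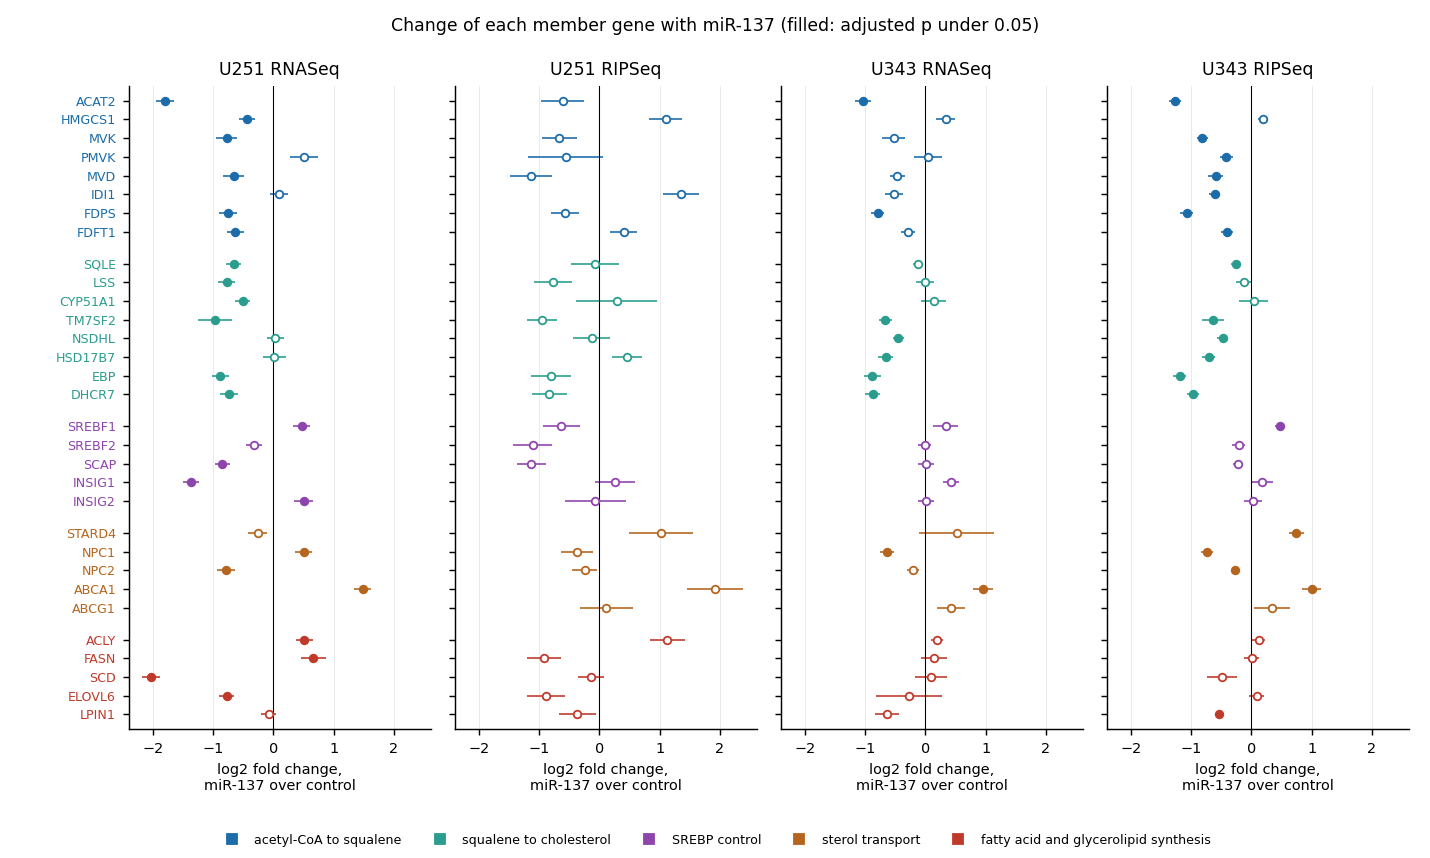
Log2 fold change of each member with miR-137 over control (horizontal axis) in the 4 experiments, by gene and coloured by role, with bars of 1 standard error and filled circles where the edgeR adjusted p was under 0.05. No circle is filled in U251 RIPSeq. ACAT2, FDPS, TM7SF2, EBP and DHCR7 are filled and to the left of 0 in the other 3 panels, and ABCA1 is filled and to the right of 0 in the same 3.

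In total RNA of U343 cells, 8 of 31 members fell and 1 rose, against 11.7% and 8.31% of the 15088 genes tested (edgeR). The median over the members was -0.12, and over all genes 0.02. Fewer genes passed the threshold than in U251 RNASeq, and the 2 miR-137 libraries differed more from each other than the 2 controls did, with a median difference of 0.23 against 0.10 on the log2 scale over all genes. Without either control library no member passed, and neither did any other gene. Leaving out miR-137 replicate 1 gave 12 lower and 4 higher (20.3% and 19.3% of all genes), and leaving out miR-137 replicate 2 gave 15 and 1 (19.3% and 18.4%).

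Of the 8 falls, 7 were among sterol enzymes, 5 of them between squalene and cholesterol, and the remaining one was NPC1. ACAT2 had 113 and 126 CPM in control and 52.9 and 63.1 CPM in miR-137 libraries, a log2 fold change of -1.05 (SE 0.13, edgeR adjusted p = 0.0142, and -1.18 to -0.93 over the leave-outs). FDPS went from 266 and 296 CPM to 155 and 168 CPM (-0.80, SE 0.11, edgeR adjusted p = 0.0168). DHCR7 went from 267 and 312 CPM to 150 and 165 CPM (-0.88, SE 0.12, edgeR adjusted p = 0.0177). In none of the 3 did the groups overlap, but the genes were picked by adjusted p, so this is no separate evidence. EBP fell by 0.88, TM7SF2 by 0.67, HSD17B7 by 0.66 and NSDHL by 0.45, the last 2 being a ketosteroid reductase gene and the gene of a decarboxylating sterol dehydrogenase. NPC1 fell from 62.2 and 63.5 CPM to 37.1 and 43.9 CPM (-0.63, SE 0.12, edgeR adjusted p = 0.0307). ABCA1 was the 1 member that rose, from 104 and 120 CPM to 189 and 246 CPM (0.96, SE 0.17, edgeR adjusted p = 0.0295).

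No member of the SREBP group and none of the fatty acid group passed in U343 RNASeq. INSIG1 had 523 and 584 CPM in control and 665 and 817 CPM in miR-137 libraries, a log2 fold change of 0.42 (edgeR adjusted p = 0.101). SCD was at 1218 and 1677 CPM in control and 1225 and 1858 CPM with miR-137, so that the groups overlapped. STARD4 showed the widest gap between replicates, with 15.3 and 57.8 CPM in the 2 miR-137 libraries around controls of 24.9 and 26.0 CPM.

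In PABP-bound RNA of U343 cells sterol enzymes fell as well. In all, 16 members fell and 3 rose, against 27.8% and 28.5% of 14866 genes (edgeR). The median log2 fold change of the members was -0.27, with all genes at 0.00. Leaving out a library gave 12 to 16 lower and 3 or 4 higher. From acetyl-CoA to squalene 7 of 8 enzymes fell, all but HMGCS1 (0.19), and from squalene to cholesterol 6 of 8 fell, all but LSS (-0.13) and CYP51A1 (0.03).

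ACAT2 went from 140 and 148 CPM to 64.5 and 54.9 CPM (log2 fold change -1.27, SE 0.10, edgeR adjusted p = 4.21e-05). EBP, whose promoter window is printed above, went from 110 and 96.9 CPM to 48.4 and 41.8 CPM (-1.19, SE 0.11, edgeR adjusted p = 6.63e-05). FDPS went from 303 and 318 CPM to 160 and 135 CPM (-1.08, SE 0.11, edgeR adjusted p = 0.000122). In all 3 the miR-137 libraries lay far below the controls, but the genes were picked by adjusted p, so this is no separate evidence. DHCR7 fell by 0.97, MVK by 0.82, HSD17B7 by 0.71 and IDI1 by 0.61 on the log2 scale. MVD, TM7SF2, NSDHL, PMVK, FDFT1 and SQLE fell too, with values between -0.64 and -0.26. Of these, PMVK was lost without control replicate 1 or miR-137 replicate 1 (-0.49 to -0.35 over the leave-outs), FDFT1 and TM7SF2 without control replicate 2 (-0.50 to -0.34 and -0.98 to -0.38), and SQLE without any 1 of the 4 libraries (-0.31 to -0.22).

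NPC1 fell from 86.1 and 74.0 CPM to 48.9 and 46.7 CPM in U343 RIPSeq (log2 fold change -0.74, SE 0.10, edgeR adjusted p = 0.000453), and LPIN1 from 151 and 150 CPM to 102 and 106 CPM (-0.53, SE 0.08, edgeR adjusted p = 0.000961). NPC2 fell by 0.27, a call lost without either control or without miR-137 replicate 2 (-0.33 to -0.21). ABCA1 rose from 78.7 and 56.6 CPM to 145 and 125 CPM (1.00, SE 0.16, edgeR adjusted p = 0.00113). STARD4 and SREBF1 rose as well, by 0.75 and 0.48. SREBF2, SCAP, INSIG1, INSIG2, ABCG1, ACLY, FASN, SCD and ELOVL6 did not pass the threshold, at -0.49 to 0.34.

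PABP-bound RNA of U251 cells gave no call among the 31 members with edgeR, where 0.263% of 14087 genes fell and 0.944% rose. At an unadjusted p under 0.05, 7 members were lower and 4 higher, 20.1% of all genes passing in either direction. DESeq2 called SCAP lower and IDI1 and ABCA1 higher, against 3.79% and 4.18% of all genes. The median log2 fold change of the members was -0.37, with all genes at -0.02. SCAP had 170 and 142 CPM in control and 70.8 and 71.3 CPM in miR-137 libraries, the smallest adjusted p of the members (log2 fold change -1.14, SE 0.24, edgeR adjusted p = 0.113). ABCA1 had 13.1 and 29.8 CPM in control and 81.4 and 81.4 CPM with miR-137, and IDI1 had 11.7 and 17.3 CPM against 36.0 and 38.0 CPM. These 3 genes were picked by their p-values, so the gaps between their groups are no separate evidence. In ABCA1 the 2 controls differed from each other by more than the 2 miR-137 libraries did. Calls depended on the control pair. Without control replicate 1, 20 members fell and 8 rose (35.3% and 32.8% of all genes), and without control replicate 2, 15 fell and 12 rose (34.2% and 40.2%), when the lone control is assumed to vary as little as the miR-137 pair. CYP51A1 shows how far the controls lay apart, at 17.1 and 69.1 CPM around miR-137 values of 53.0 and 52.2 CPM.

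ACAT2, FDPS, TM7SF2, EBP and DHCR7 fell in U251 RNASeq, U343 RNASeq and U343 RIPSeq, and ABCA1 rose in all 3. The share of all genes called in all 3 was not counted. The U343 RNASeq calls carry the limits given above for single control libraries, and the TM7SF2 call in U251 RNASeq was also lost with DESeq2. Of the 17 members lower in U251 RNASeq, 10 were also lower in U343 RIPSeq, which is 58.8% of the first list and 62.5% of the second. Over all genes tested in both, the shares were 55.4% and 53.9%. Of the 8 members lower in U343 RNASeq, 5 (62.5%) were also lower in U251 RNASeq, against 58.2% over all genes, and all 8 were lower in U343 RIPSeq, against 92.3%. These shares of the members were thus near those of all genes. The NF-Y box stood in the window of 11 of 14 matched members that fell in U251 RNASeq and in 6 of the other 12, and of 10 of 13 that fell in U343 RIPSeq and 7 of the other 13. These counts are a description of few genes and were not tested.

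The response of the lines was compared directly in RNASeq through the interaction of transfection with line, the log2 fold change in U343 minus that in U251. This difference passed the threshold for 8 members, 7 with a higher value in U343 and 1 with a lower value, against 12.5% and 12.7% of 15550 genes (edgeR). The numbers were 6 and 4 with upper-quartile scaling, and 8 and 3 for genes with a mean of at least 50 reads. SCD differed most, at 2.12 (SE 0.32, edgeR adjusted p = 0.00319), having fallen in U251 while the U343 groups overlapped. INSIG1 differed by 1.79 (SE 0.20, edgeR adjusted p = 0.00133), falling in U251 while both U343 miR-137 libraries were above their controls. NPC1 went the other way, at -1.14 (SE 0.19, edgeR adjusted p = 0.00423), with a rise in U251 and a fall in U343. These 3 differences passed in each of the 13 other settings and leave-outs. Fewer members passed without U343 control replicate 1 or 2, U251 control replicate 2 or U251 miR-137 replicate 1, and more without U343 miR-137 replicate 2. The share of all genes passing moved the same way in each of these fits.

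The remaining 5 were SCAP (0.85), HMGCS1 (0.77), LSS (0.76), ACAT2 (0.75) and SQLE (0.53), and each of them was lost in 2 to 6 of those 13. SCAP was lost without either U343 control, with 0.71 to 0.98 over the leave-outs. The other 4 were lost as well without U251 control replicate 2 or miR-137 replicate 1, among others. Their ranges over the leave-outs were 0.57 to 0.95 for HMGCS1, 0.63 to 0.96 for LSS, 0.62 to 0.98 for ACAT2 and 0.48 to 0.65 for SQLE. EBP, DHCR7 and FDPS gave differences of -0.01, -0.14 and -0.04 with SEs of 0.21, 0.21 and 0.21. In RIPSeq the same test called IDI1 alone, at -1.92 (SE 0.29, edgeR adjusted p = 0.0239), against 1.22% of 15959 genes lower and 2.06% higher. It was lost without either U251 miR-137 library and without each of the 4 U343 libraries (-2.26 to -1.68). IDI1 overlaps C10orf110 by 4178 bp of its 9098 bp span in the table's coordinates, and reads there cannot be told apart. It also has 3 annotated pseudogenes. Without U251 control replicate 1 or 2 more members passed, and a larger share of all genes passed as well.

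**Figure D3:**
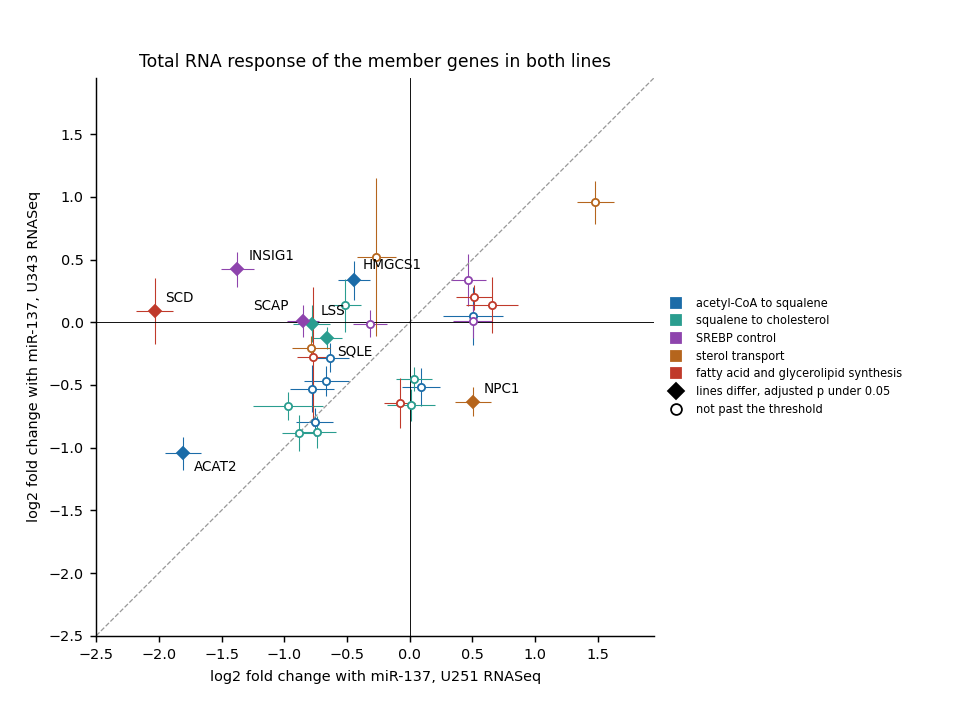
Log2 fold change of the members with miR-137 in U251 RNASeq (horizontal axis) and U343 RNASeq (vertical axis), each with bars of 1 standard error and coloured by role. Filled diamonds with names mark the 8 members whose fold changes differed between the lines at an edgeR adjusted p under 0.05, and the dashed line is where both lines change alike. SCD and INSIG1 lie far above that line and NPC1 below it. ABCG1 is left out because it was not tested in U251.

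The effect of miR-137 on PABP-bound RNA was also set against its effect on total RNA within each line. This interaction passed for 0 of 31 members in either line (edgeR), with 0.0281% of 14210 genes lower and 0.106% higher in U251, and 0% lower and 0.00649% higher of 15413 genes in U343. At an unadjusted p under 0.05 the number of members was 9 in U251 and 0 in U343, against 18.9% and 17.6% of all genes. DESeq2 called 6 in U251 and 0 in U343. Those in U251 were SCD, INSIG1, HMGCS1, FDFT1 and IDI1 with a higher value in RIPSeq and FASN with a lower one. Over all genes the DESeq2 shares were 2.21% higher and 2.84% lower in U251, and 0.824% and 1.76% in U343. The difference for SCD in U251 was 1.85 (SE 0.28, edgeR adjusted p = 0.0592), with 603 and 795 CPM in RIPSeq control and 642 and 630 CPM in RIPSeq miR-137 libraries. Without either U251 RIPSeq control more members passed in U251, and a larger share of all genes passed as well. The same held in U343 without RNASeq miR-137 replicate 2.

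A filter modelled on the one in the study's methods asks instead for an odds ratio over 2 with an adjusted Fisher's exact p under 0.001 in all 4 control and miR-137 library pairings, which compares reads of libraries and not conditions. In U251 RNASeq it took ACAT2 and SCD as lower and ABCA1 as higher, against 2.21% and 6.14% of 20314 genes. In U251 RIPSeq it took no member as lower and HMGCS1, IDI1, ABCA1 and ACLY as higher, against 1.49% and 3.47%. No member passed in U343 RNASeq (2.88% lower and 1.51% higher over 20626 genes). In U343 RIPSeq it took ACAT2 and EBP as lower and none as higher, against 3.4% and 4.83%. These shares cover every gene, also those too low to be tested with edgeR, so they are not like the edgeR shares. The totals were not scaled. With TMM-scaled totals U251 RNASeq had 879 genes lower and 717 higher, in place of 448 and 1248, and 3 members lower and 1 higher. Of the 17 falls called with edgeR in U251 RNASeq, only those of SCD, ACAT2 and INSIG1 exceeded 1 on the log2 scale. In U251 RIPSeq the filter took more members as lower without either control, most without replicate 2, and it took more of all genes as well. The same held in U343 RIPSeq without control replicate 1, and in U343 RNASeq without control replicate 1 or miR-137 replicate 2.

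PABP-bound and total RNA were compared in the control libraries, which asks how much of each message was recovered with PABP relative to the bulk of messages. The 2 kinds of RNA were extracted in different ways, and no mock precipitation is among the libraries. Extraction, background and binding to PABP thus cannot be told apart in these ratios. In U251, 10 members were higher in PABP-bound RNA and 3 lower, against 22.3% and 18.2% of all genes (edgeR), and in U343 the counts were 6 and 2, against 18.2% and 15.7%. The median log2 ratio of the members was 0.53 in U251 and 0.14 in U343, with all genes at 0.07 and 0.00. FASN was recovered strongly in both lines, with 628 and 392 CPM in RIPSeq and 144 and 81.0 CPM in RNASeq of U251 (log2 ratio 2.18, SE 0.34, edgeR adjusted p = 0.00296). In U343 it had 654 and 686 CPM against 167 and 231 CPM (1.75, SE 0.20, edgeR adjusted p = 0.00115). SREBF1 was at 2.31 in U251 and 0.77 in U343, and NPC2 at 1.13 and 0.77.

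SREBF2 was higher in PABP-bound RNA of U251, at 208 and 122 CPM against 45.0 and 43.3 CPM (log2 ratio 1.90, SE 0.27, edgeR adjusted p = 0.00222). In U343 its values were 148 and 154 CPM against 143 and 160 CPM, which overlap (-0.01, SE 0.12). HMGCS1 was lower in PABP-bound RNA of U251, at 18.9 and 24.3 CPM against 52.2 and 56.5 CPM (-1.33, SE 0.20, edgeR adjusted p = 0.00274). Also past the threshold in U251 were DHCR7 (1.40), ELOVL6 (1.27), NPC1 (0.86), SCAP (0.83) and SCD (0.70) on the higher side and STARD4 (-1.21) and HSD17B7 (-0.84) on the lower. ABCG1 rested on 49 reads in RIPSeq and 3 in RNASeq. Its ratio was 11.3 with an exact 95% counting interval of 3.65 to 56.7, which leaves out the spread between libraries. The calls for the last 8 of these members and for NPC2 moved with single libraries. Without either U251 RNASeq control fewer members passed, and a smaller share of all genes passed as well. Without RIPSeq control replicate 2 both were larger.

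In U343 the other calls were NPC1 (0.47), TM7SF2 (0.65) and NSDHL (0.28) on the higher side and ACLY (-0.47) and ABCG1 (-1.24) on the lower. The NSDHL call was lost in 9 of the 10 other settings, all but the fit of the 4 control libraries alone. Leaving out any 1 of the 4 control libraries gave fewer members higher, and a smaller share of all genes higher as well. The U343 call for SREBF1 was lost without either RIPSeq control. FASN and NPC2 kept their calls in all 10 other settings in U343, as did FASN, SREBF1, SREBF2 and HMGCS1 in U251. The miR-137 libraries entered these fits through the shared estimate of the spread, the filter on low counts and the TMM scaling. In U251, 14210 genes were tested with all 8 libraries and 13242 with the 4 control libraries alone.

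**Figure D4:**
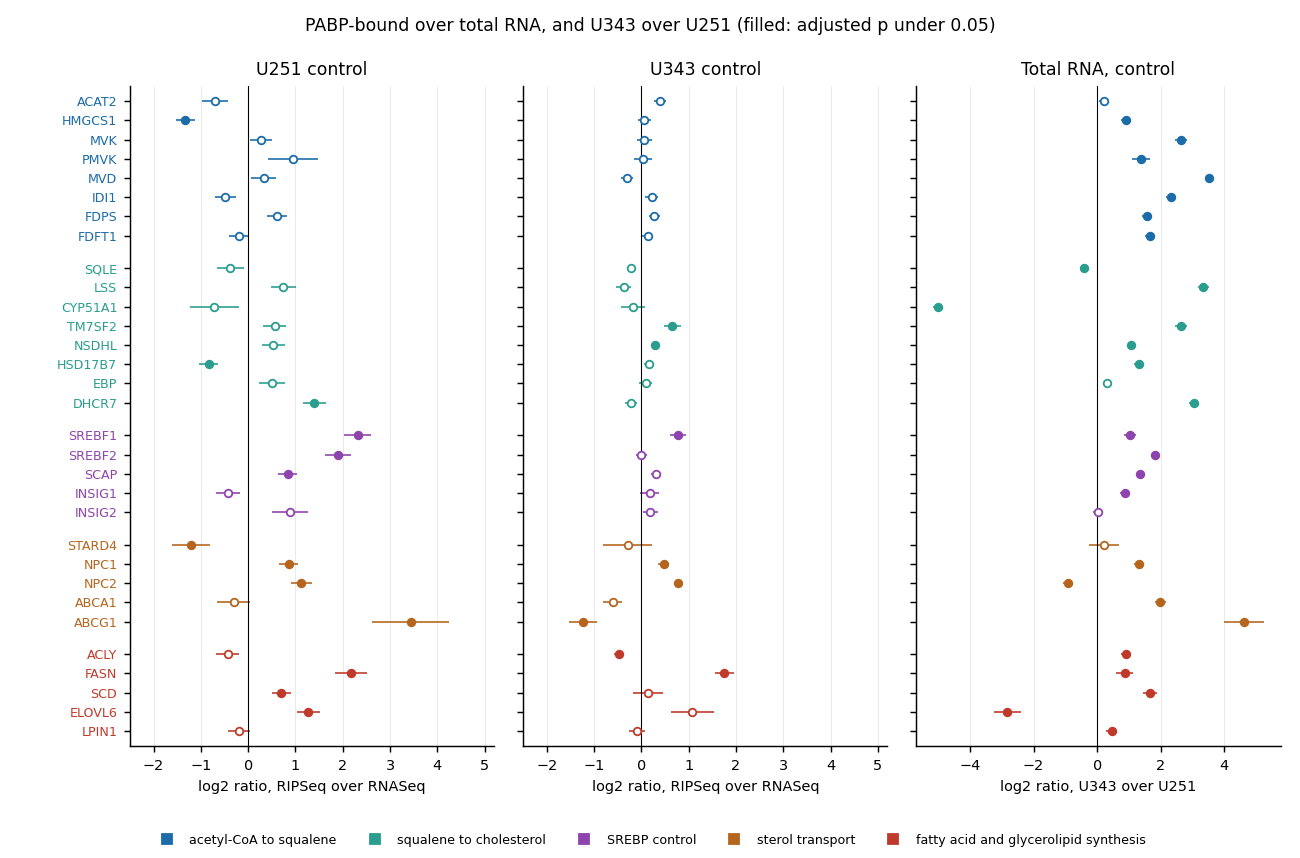
Log2 ratio of PABP-bound over total RNA in the control libraries of U251 (left) and U343 (middle), and of U343 over U251 in control RNASeq (right), for each member with bars of 1 standard error, coloured by role and filled where the edgeR adjusted p was under 0.05. FASN stands well to the right of 0 in the left and middle panels. On the right, CYP51A1 and ELOVL6 lie far to the left of 0 and most other members to the right.

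Levels in the 2 lines before miR-137 were compared in the control RNASeq libraries, where line and library preparation cannot be told apart. Of the 31 members, 23 were higher in U343 and 4 lower, against 40.9% and 35.9% of 15550 genes (edgeR), and the median log2 ratio was 1.30, with all genes at 0.10. MVD had 127 and 143 CPM in U343 and 12.1 and 11.4 CPM in U251 (log2 ratio 3.53, SE 0.13, edgeR adjusted p = 1.56e-07). LSS had 454 and 546 CPM against 53.4 and 45.5 CPM (3.34, SE 0.17, edgeR adjusted p = 7.64e-07), and DHCR7 had 275 and 321 CPM against 33.6 and 38.8 CPM (3.04, SE 0.16, edgeR adjusted p = 8.06e-07). MVK, TM7SF2, IDI1, ABCA1, SREBF2, FDFT1, SCD and FDPS were also higher in U343, by 1.57 to 2.64 on the log2 scale. HMGCS1, PMVK, NSDHL, HSD17B7, SREBF1, SCAP, INSIG1, NPC1 and ACLY were higher by 0.87 to 1.37.

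CYP51A1 and SQLE were the sterol enzymes that were lower in U343. CYP51A1 had 2.68 and 2.06 CPM in U343 and 75.7 and 78.0 CPM in U251 (log2 ratio -5.01, SE 0.16, edgeR adjusted p = 1.04e-07). It was as low in U343 RIPSeq, at 2.02 and 1.72 CPM in the control libraries scaled within that experiment. ELOVL6 was lower in U343 by 2.83, NPC2 by 0.93 and SQLE by 0.42, the last being lost without U343 control replicate 2 (-0.44 to -0.36). CYP51A1 has 3 annotated pseudogenes. ACAT2, EBP, INSIG2 and STARD4 did not pass, at 0.20, 0.32, 0.02 and 0.22 with SEs of 0.15, 0.15, 0.15 and 0.48. ABCG1 had 197 reads in the U343 controls and 3 in those of U251. Its ratio was 26.0 with an exact 95% counting interval of 8.78 to 127, which leaves out the spread between libraries. The calls for FASN (0.86) and LPIN1 (0.45) were also lost without single controls, with 0.52 to 1.34 and 0.42 to 0.50 over the leave-outs.

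Other genes of these pathways, outside the 31, were counted by list. Of further sterol synthesis and SREBP pathway genes, 8 fell and 4 rose of 18 tested in U251 RNASeq, 3 and 2 of 18 in U343 RNASeq, 6 and 4 of 18 in U343 RIPSeq, and 0 of 19 in U251 RIPSeq. Of further fatty acid synthesis genes, 11 fell and 4 rose of 19 in U251 RNASeq, 5 and 0 of 19 in U343 RNASeq, 11 and 4 of 19 in U343 RIPSeq, and 0 of 19 in U251 RIPSeq (edgeR). The shares that fell were 44.4%, 16.7% and 33.3% of the sterol list and 57.9%, 26.3% and 57.9% of the fatty acid list in U251 RNASeq, U343 RNASeq and U343 RIPSeq, beside 29%, 11.7% and 27.8% of all genes. For LXR and oxysterol genes the counts were 0 and 2 of 5, 1 and 2 of 6, 2 and 2 of 6, and 0 of 7, in the same order of experiments, too few genes to set against those shares. The desaturase SCD5 fell by 1.55 in U251 RNASeq, while ERLIN1, a gene of ER-associated protein degradation, rose by 1.71. In U343 RNASeq the sterol-responsive TMEM97 fell by 1.47 and the acyl-CoA synthetase ACSL1 by 0.94. In U343 RIPSeq ERLIN2 fell by 1.49, ACACA, the acetyl-CoA carboxylase of fatty acid synthesis, by 1.07 and TMEM97 by 0.99.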

How the data were processed

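Reads were mapped by the authors with RMAP (build hg18) and assigned to merged RefSeq gene models. Each library has 1 deposited table of counts, not normalized. How reads with several matches were counted, and whether strand was used, is not given in the sources used here, so overlapping genes cannot be told apart: 6 members overlap another gene in the hg18 coordinates of the tables and 5 have annotated pseudogenes. SLC35E2 is repeated in the U251 tables, and its first line was kept.

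Here, groups came from the labels. The 4 libraries of each experiment were compared with edgeR 4.0.16 in R 4.3.3 (quasi-likelihood F test, TMM, filterByExpr, two-sided, Benjamini-Hochberg over all genes tested, threshold 0.05), and ratios between assays, lines and fold changes were contrasts in fits of 8 libraries. The study's filter was applied with two-sided Fisher's exact tests in either direction. Alternatives were DESeq2 1.42.0 with its size factors, upper-quartile scaling, no filter beyond 1 read, a mean of 50 reads or more, the replicate number as a block, the 4 control libraries alone, other limits of the filter, and each library left out in turn, where a lone library is assumed to vary like the other groups. Errors are standard errors of log2 values. The procedure was tested on simulated counts with changes larger than those of most members, so small changes were not covered by that test. Promoter and microRNA sequences were taken from RefSeq tables of GRCh38.p14 and matched by symbol, and all 31 members matched the gene annotation.

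The members, their roles and the further lists were chosen with earlier results of these data known. All members enter the counts, with full statistics for at most 10 called members a comparison by adjusted p, and further genes are named where they were among the 3 with the smallest adjusted p in an experiment. Some genes of the lists enter the counts and are not reported singly here. An additional U251 replicate named in the methods was not analysed here.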

Additional observations from a re-analysis of the deposited data

Results flagged for a closer look

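For 9 members the effect of miR-137 differed between the lines by the test of the difference itself (edgeR, interaction of transfection with line), with the log2 fold change of U251 taken from that of U343. In RNASeq the difference was 2.12 for SCD, 1.79 for INSIG1, 0.85 for SCAP, 0.77 for HMGCS1, 0.76 for LSS, 0.75 for ACAT2 and 0.53 for SQLE, and -1.14 for NPC1. In RIPSeq it was -1.92 for IDI1, which overlaps C10orf110 by 4178 bp. Line and library preparation cannot be told apart in any of these.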

How the results depend on the processing

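No called value of a member changed direction under any alternative: of 1027 values for 108 calls, 895 stayed past the threshold and 132 did not. Only values called in the edgeR fits above were followed, mostly with the same libraries, so a change of direction was unlikely from the start. U251 RIPSeq and the assay interactions had no calls and are not covered. Upper-quartile scaling moved the median of all genes in U251 RNASeq from 0.02 to 0.16 and that of the members from -0.57 to -0.43. Counts of members (lower, then higher, unless said) moved by more than 1.5 times as follows. Without a filter U251 RNASeq had 3 higher. The lower count of the line interaction in RNASeq, 1, was 4 with upper-quartile scaling and 3 with a mean of at least 50 reads. DESeq2 gave 1 and 2 in U251 RIPSeq, 6 for the assay interaction in U251 and 6 for the line interaction in RIPSeq. For PABP-bound against total RNA, the 4 control libraries alone gave 1 and 4 in U251 and 5 and 10 in U343, where upper-quartile scaling and a mean of at least 50 reads each gave 4 lower. In the study's filter, an odds ratio over 1.5 gave 3 higher in U251 RNASeq, 1 lower in U251 RIPSeq, 5 and 1 in U343 RNASeq and 8 and 1 in U343 RIPSeq. TMM-scaled totals gave 1 and 2 in U251 RIPSeq and 1 lower in U343 RIPSeq, and 3 of 4 pairs gave 1 lower in U343 RNASeq.

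Leaving out 1 library gave 3 to 7 higher in U251 RNASeq, 0 to 20 lower and 0 to 12 higher in U251 RIPSeq, and 0 to 15 lower and 0 to 4 higher in U343 RNASeq. PABP-bound against total RNA ranged over 1 to 11 lower and 3 to 18 higher in U251, and 0 to 2 and 2 to 3 in U343. The assay interaction ranged over 0 to 20 in U251 and 0 to 4 in U343, and the line interaction over 3 to 14 in RNASeq and 0 to 21 in RIPSeq. The filter ranged over 1 to 2 higher in U251 RNASeq, 0 to 9 lower in U251 RIPSeq, 0 to 2 lower and 0 to 1 higher in U343 RNASeq, and 2 to 4 lower and 0 to 1 higher in U343 RIPSeq. In each result that used them, leaving out either U251 RIPSeq control raised the share of all genes passing as well. Where fewer samples remain, the spread rests on the other groups, and otherwise the cause was not tested.

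Same-numbered libraries deviated together only weakly, with correlations over genes of 0.0327 and 0.0355 in U251 RNASeq and RIPSeq and of 0.139 and 0.279 in U343, and the labels name no shared batch, so the numbers do not establish pairs. With a replicate block the counts were 18 and 6 in U251 RNASeq, 0 and 1 in U251 RIPSeq, 6 and 1 in U343 RNASeq and 19 and 4 in U343 RIPSeq, and the line interaction had 2 and 7 in RNASeq and 0 in RIPSeq. HSD17B7 and NSDHL were the calls lost with the block in U343 RNASeq, and NSDHL was lost there with upper-quartile scaling too. Depth limited ABCG1, with at most 3 reads per U251 RNASeq library.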
